A study of Rattus norvegicus with 24 samples.

Results

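Kidney total RNA of Dahl salt-sensitive (SS) rats on low and high salt was compared 3 days into the salt change on 6 of the 24 arrays of the series. The 6 arrays were those whose titles begin with the SS low-salt against high-salt comparison at 3 days. They held 3 rat pairs, rat 1 with rat 7, rat 2 with rat 8 and rat 3 with rat 9, and each pair was hybridised on 2 arrays with the dyes Cy3 and Cy5 exchanged. The array is a cDNA array with 2 channels, so every value compares 1 rat directly with another on the same spot. The low-numbered and the high-numbered rat of a pair differ in salt, and the titles do not say which is which. For comparison the series holds SS pairs overnight and pairs of SS-13BN/Mcw, a consomic strain with the SS background and a Brown Norway chromosome 13, overnight and at 3 days. Every group has 3 pairs. The labels give the tissue as kidney with no region, and the sources used here give no sex, age, diet content or pooling.

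The SS rat raises its blood pressure and injures its kidneys on a high-salt diet, and the consomic strain is largely protected. The kidney sets the salt balance through transport along the nephron, where the proximal tubule reclaims most of the filtered load and the thick ascending limb and later segments adjust the rest. In a stressed kidney, interstitial cells make collagen and other matrix, while injured tubules lose their transporters and metabolic enzymes and make stress proteins.

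All values keep the log ratio scale of the deposited table. Neither the base of the log nor the rat in the numerator is stated, so the results are given as positive or negative sides of the ratio, with no fold and no direction with salt. Averages over pairs and comparisons of groups take the same side as numerator throughout, which was not tested. A pair value is the mean of its swapped arrays after median centring. Unless said otherwise, a value is the mean over pairs ± SD, with n the number of pairs, and an adjusted p is from limma with Benjamini-Hochberg adjustment over all probes tested. The arrays held values for 877 to 1275 probes, and 1495 probes had a value on at least 1 of the 6. Both dye orientations were present in at least 2 pairs for 883 probes, which were tested (752 with a single gene symbol, covering 751 genes), and the other 612 were not. Nephron genes were measured, with values for 19 proximal tubule, 5 thick ascending limb or distal tubule and 5 collecting duct markers. A ratio holds no level, so their amounts could not be checked. A whole-kidney ratio also cannot tell fewer cells of a type from less RNA per cell.

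The pairs differed in how far their rats stood apart. Over the tested probes the SD of the pair values was 0.37 in pair 1, 0.21 in pair 2 and 0.20 in pair 3, and 100, 36 and 15 probes lay beyond 0.5 on either side. Over the 767 probes measured in all pairs, which share arrays and dye effects and are no independent replicates, pairs 1 and 2 correlated with r = 0.51. Pair 3 correlated with pair 1 at 0.08 and with pair 2 at 0.03. Pair 1 had the widest values, and pair 3 shared little of the order of genes in the others. Slides of the group were numbered consecutively and apart from those of all other groups.

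The swapped arrays of a pair shared less than a pair mean implies. Their r was 0.35 in pair 1, -0.04 in pair 2 and -0.05 in pair 3 before any correction. Once the shared part of each dye orientation (the mean of all other arrays so labelled) was subtracted, it was 0.33, 0.40 and 0.71. The difference between swapped arrays was itself alike from pair to pair (r from 0.60 to 0.72). A pair mean holds both orientations equally, so an offset between them cancels in it, and the array values are given below for the leading genes.

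The genes that passed the test in SS rats at 3 days lay on the positive side, and they were a collagen chaperone, a secreted protease inhibitor and a tubulin. Of 883 probes 3 passed (0.34 percent), all positive, and 0 negative probes passed (0 percent). At an unadjusted p under 0.05 there were 60 positive (6.8 percent) and 48 negative probes (5.44 percent), 108 in all (12.2 percent), and these shares are the background for the list counts that follow. A replicate block on the low-numbered rat made it 5, Col1a1 and Stmn1 being added. In a fit of these pairs alone 0 passed (65 at an unadjusted p under 0.05). Without pair 1 or pair 2 the count was 0 (50 and 83), and without pair 3 it was 10.

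**Figure D1:**
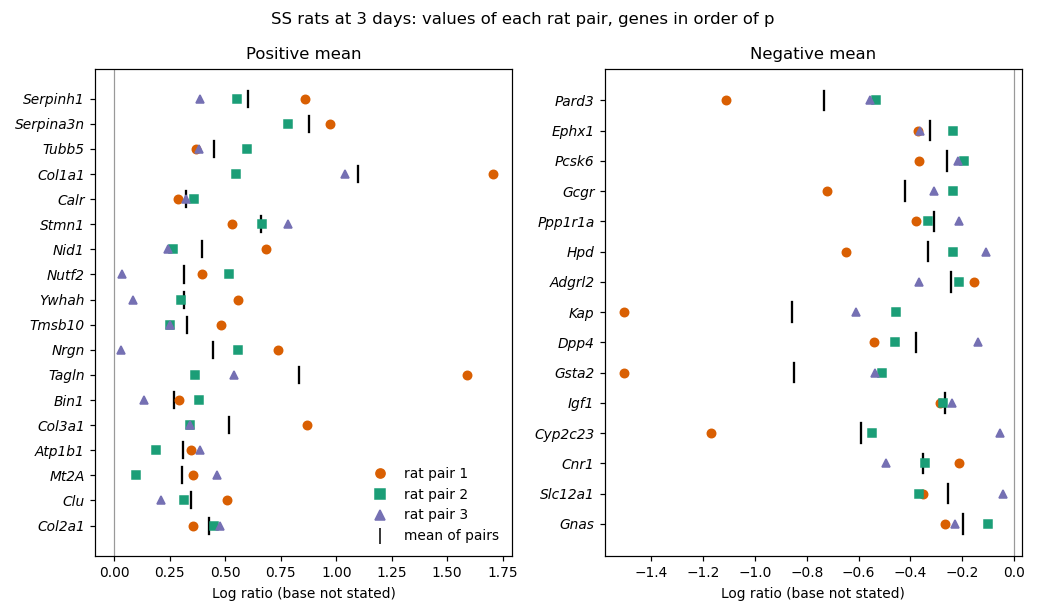
Log ratio of each rat pair (symbols) and their mean (bar) for the leading genes in order of p, positive on the left and negative on the right, with the x axis in the units of the deposited table. Pair 1 is farthest from 0 for Col1a1 at 1.71, Tagln at 1.59, Kap and Gsta2 at -1.51, while Calr and Igf1 have nearly equal values in all pairs.

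Serpinh1 encodes HSP47, the chaperone that holds procollagen while it folds. Its pair values were 0.86, 0.55 and 0.39, and the swapped arrays read 0.85 and 0.87 in pair 1, 0.47 and 0.64 in pair 2, and 0.53 and 0.25 in pair 3. All 6 arrays lay above 0, and neither orientation was the higher in every pair. The mean was 0.60 ± 0.24 (n = 3, adjusted p = 0.032).

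Serpina3n, a secreted inhibitor of serine proteases of the acute phase, had the largest mean of the genes that passed. The arrays read 1.08 and 0.87 in pair 1 and 0.68 and 0.89 in pair 2. Pair 3 gave a single array, at 0.17, and did not enter the fit. The mean of 0.88 ± 0.13 (n = 2, adjusted p = 0.032) therefore leaves out the pair with the lowest reading. With all 3 pairs required the gene is not tested, and with single orientations kept its mean was 0.64.

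Tubb5 encodes a beta-tubulin of microtubules. Its pair values were 0.37, 0.60 and 0.38, with a mean of 0.45 ± 0.13 (n = 3, adjusted p = 0.0431). The arrays with the low-numbered rat in Cy3 read -0.08, 0.17 and -0.06, and those with it in Cy5 read 0.82, 1.03 and 0.82. The arrays of the latter orientation were higher in every pair, whereas those of Serpinh1 lay closer together. In the array-level fit with a dye term the mean was also 0.45 (adjusted p = 0.0284). Every pair held both orientations for Tubb5, so that fit had to return the mean of the pair values. The equal mean is therefore no separate check on the gap between orientations. A cDNA probe for a tubulin can also bind transcripts of other tubulins, which the ratio cannot separate.

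The promoters of these genes and of Calr are shown with a motif near the start of each in capitals, a stress or cytokine response motif in 3 of them and in Tubb5 the CCAAT box, a general promoter element. The motifs were picked after the sequences were seen, the searches covered both strands of the 250 bases before each start, and the sequences are from RefSeq on GRCr8, 5′ to 3′ on the strand of the gene. Serpinh1 is shown at chr1:163062977-163063046 (minus strand) with a heat shock element (a TTC on each side of a central GAA, with 2 free bases between neighbours) 35 to 23 bases upstream, found in 0.663 percent of 33469 promoters. Serpina3n is shown at chr6:129088234-129088312 (plus strand) with a pair of STAT half-sites, TTCNNNGAA, 123 to 115 bases upstream (7.67 percent of promoters). Tubb5 is shown at chr20:2917399-2917473 (plus strand) with a CCAAT box 143 to 139 bases upstream (34.0 percent). Calr is shown at chr19:40213117-40213188 (plus strand) with the endoplasmic reticulum stress element (CCAAT and CCACG separated by 9 bases), read on the opposite strand 232 to 214 bases upstream (0.0657 percent). The stress element contains a CCAAT box, so these searches overlap. Stmn1 and Nid1 were searched too and are not shown. Each had 0 matches to the heat shock, STAT and stress elements and 1 CCAAT box. Col1a1 had no promoter sequence to search. A match describes letters and was not tested as a binding site.
Serpinh1: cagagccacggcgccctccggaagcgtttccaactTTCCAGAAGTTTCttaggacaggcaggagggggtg
Serpina3n: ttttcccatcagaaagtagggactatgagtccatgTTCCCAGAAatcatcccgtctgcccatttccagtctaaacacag
Tubb5: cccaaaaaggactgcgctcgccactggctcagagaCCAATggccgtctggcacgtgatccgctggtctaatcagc
Calr: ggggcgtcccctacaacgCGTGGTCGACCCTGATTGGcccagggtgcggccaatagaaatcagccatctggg

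The 3 tested collagen chains stood on the positive side in every pair. Col1a1, a chain of type I collagen, had the largest mean of all tested probes, 1.10 ± 0.58 (n = 3, adjusted p = 0.065). Its pair values were 1.71, 0.55 and 1.04, and its 6 arrays ran from 0.40 to 1.72. It missed the threshold. Its SD over pairs was the widest among the leading genes of its sign after Tagln. Col3a1, the chain of type III collagen, read 0.87, 0.34 and 0.34 by pair (mean 0.52 ± 0.31, n = 3, adjusted p = 0.172). Col2a1, a cartilage collagen, read 0.35, 0.45 and 0.48 (mean 0.43 ± 0.065, n = 3, adjusted p = 0.185), and related chains may share signal on cDNA probes. Of the collagen list 5 genes had values and 3 were tested, of which 0 passed in limma. The untested Col5a2 read between -0.02 and 0.22 on 3 arrays, and Col11a1 0.10 on 1. The median of the tested chains was 0.52, against -0.01 over all tested probes, and 3 had an unadjusted p under 0.05.

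Genes that fold and process collagen were mixed beyond Serpinh1. Of 7 tested, 6 were positive, with a median of 0.17 and 2 at an unadjusted p under 0.05. Pcolce, which enhances the cleavage of procollagen, stood at 0.86 and 0.19 in pairs 1 and 3. P4ha1, a subunit of prolyl hydroxylase, read 0.89 in pair 1 and -0.21 in pair 3, and Sparc, a collagen-binding matricellular protein, read 0.24, -0.01 and -0.23. The hydroxylase subunit and isomerase P4hb averaged 0.03 ± 0.062 (n = 3).

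In the list of matrix turnover, proteoglycans and basement membrane, 7 of 11 tested genes were positive and 4 of them had an unadjusted p under 0.05, against none on the negative side. Nid1, a linker protein of basement membranes, read 0.68, 0.26 and 0.24 by pair (mean 0.40 ± 0.25, n = 3, adjusted p = 0.0763). Mgp, a matrix protein that inhibits calcification, read 1.06, 0.16 and 0.21, and the protease inhibitor Timp2 read 0.71, 0.40 and -0.02. The proteoglycan Bgn read 0.71, 0.37 and 0.01 and its relative Dcn 1.13, 0.48 and -0.42. The list median was 0.50 in pair 1, 0.20 in pair 2 and -0.02 in pair 3. Lamb2, a laminin chain, lay on the other side at -0.20 ± 0.16 (n = 3). Another 11 genes of the list had values but were not tested. The mean of their arrays was positive in 4 and negative in 7, many of them with a single array. Timp1, an inhibitor of metalloproteinases, had 4 arrays between 0.24 and 0.88, and its relative Timp3 1 array at -0.50. The proteoglycans Fmod and Lum had 1 array each, at -0.60 and -0.27.

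Markers of smooth muscle and fibroblasts stood beside these matrix genes. Of 8 tested, 5 were positive, with a median of 0.32 and pair medians of 0.83, 0.18 and -0.01. Tagln, an actin-binding protein of smooth muscle, read 1.59, 0.37 and 0.54 (mean 0.83 ± 0.66, n = 3, adjusted p = 0.164), and the growth factor receptor Pdgfra read 1.27, 0.76 and -0.43. The defining smooth muscle genes Acta2 and Des averaged -0.12 and -0.02. The part of cell makeup in the matrix values was not tested.

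The chaperones of the endoplasmic reticulum were positive for 6 of 8 tested genes, 3 of them at an unadjusted p under 0.05 (6.8 percent of all probes). Serpinh1, Ppib and P4hb are also in the collagen folding list. Calr, a calcium-binding chaperone of glycoproteins whose promoter is printed above, was the steadiest of the leading positive genes over pairs, at 0.29, 0.36 and 0.32 (mean 0.32 ± 0.037, n = 3, adjusted p = 0.065). Its 6 arrays ran from 0.16 to 0.52. Erp29, another lumenal chaperone, read 0.25, 0.12 and 0.24. The disulfide isomerase Pdia3 had swapped arrays far apart, with -1.21, -0.34 and -0.36 for the low-numbered rat in Cy3 and 0.22, 0.92 and 1.00 in Cy5, and a mean of 0.04 ± 0.46 (n = 3). Cytosolic chaperones had 0 of 5 tested genes at an unadjusted p under 0.05, from -0.17 to 0.11.

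Stmn1, which binds tubulin and destabilises microtubules, read 0.53, 0.66 and 0.78 by pair (mean 0.66 ± 0.13, n = 3, adjusted p = 0.065). As with Tubb5, the orientations stood apart, at 0.06, 0.32 and 0.46 with the low-numbered rat in Cy3 and 1.00, 1.01 and 1.10 in Cy5, though all 6 arrays were above 0. Dynll1, a dynein light chain, read 0.44, 0.23 and 0.08. The microtubule list had 4 of 6 tested genes positive and a median of 0.14. Of the actin list 10 of 15 probes were positive, 4 at an unadjusted p under 0.05, among them the actin-sequestering Tmsb10 at 0.33 ± 0.13 (n = 3, adjusted p = 0.158) and Actb at 0.22 ± 0.12 (n = 3).

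**Figure D2:**
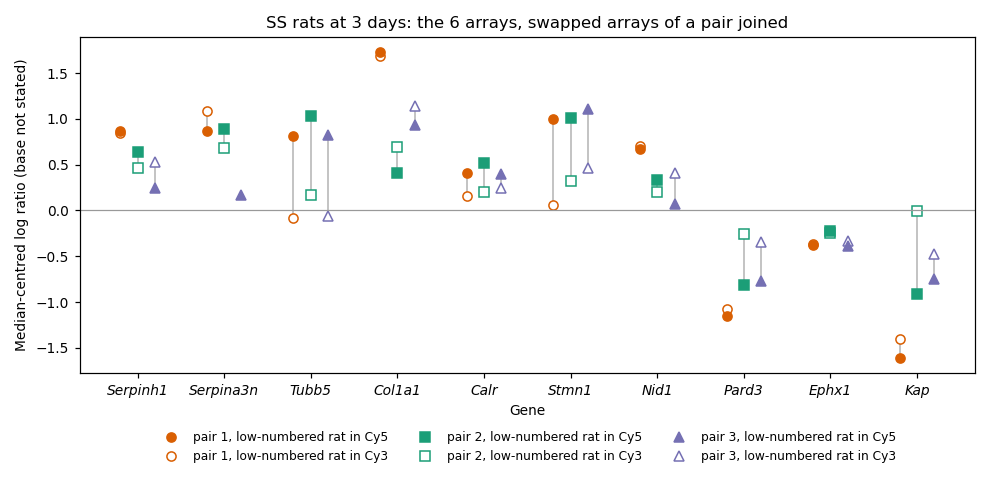
Median-centred log ratio on each of the 6 arrays for 10 leading genes, with filled symbols where the low-numbered rat was in Cy5, open symbols where it was in Cy3, and a line joining the swapped arrays of a pair. The lines are short for Serpinh1 and Ephx1 and long for Tubb5, from -0.08 to 0.82 in pair 1, and for Stmn1.

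Injury and acute phase genes had 11 of 16 tested members positive, with 7 positive and 0 negative members at an unadjusted p under 0.05 (6.8 and 5.44 percent of all probes). The metallothionein Mt2A, which binds zinc and copper, read 0.35, 0.10 and 0.46 and its relative Mt3 0.60, -0.09 and 0.62, both lowest in pair 2. Clusterin (Clu), a secreted chaperone of injured tubules, read 0.51, 0.32 and 0.21 (mean 0.34 ± 0.15, n = 3, adjusted p = 0.182). The lectin Lgals1 read 0.97, 0.34 and 0.03, and vimentin (Vim), the intermediate filament of mesenchymal cells, 0.62, 0.06 and 0.17. Osteopontin (Spp1) stood at 0.12 ± 0.059 (n = 3), and the adhesion receptor Cd44 at -0.25 ± 0.41 (n = 3).

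Proximal tubule markers were negative in all 13 tested genes, and 0 passed in limma. At an unadjusted p under 0.05 there were 10, and of the 12 measured in all pairs 11 were negative in every pair, where 16.7 percent of all probes measured in 3 pairs were (30.9 percent had 1 sign in every pair). Their median was -0.59. It was -1.17 in pair 1, -0.23 in pair 2 and -0.15 in pair 3, so the list was far from 0 in 1 pair and nearer in the others. Kap, a kidney protein under androgen control, read -1.51, -0.46 and -0.61 (mean -0.86 ± 0.57, n = 3, adjusted p = 0.158). In pair 2 its arrays were -0.01 and -0.91. Anpep, a brush border peptidase, read -1.66, -0.07 and -0.10, and Acsm2, a medium-chain acyl-CoA ligase, -1.69, -0.16 and -0.30. The enzymes Aadat, of lysine and kynurenine breakdown, Hao2, of 2-hydroxy acid oxidation, and Agxt2, an aminotransferase, averaged -0.78, -0.73 and -0.65. Dpp4, another brush border peptidase, was steadier at -0.54, -0.46 and -0.14 (mean -0.38 ± 0.21, n = 3, adjusted p = 0.172), and the endocytic receptor Lrp2 read -0.88 and 0.27 in pairs 1 and 2.

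In the list of thick ascending limb and distal convoluted tubule all 5 tested genes were negative, 3 at an unadjusted p under 0.05. Ppp1r1a, a phosphatase inhibitor, read -0.38, -0.33 and -0.21 (mean -0.31 ± 0.086, n = 3, adjusted p = 0.158). Slc12a1, the sodium-potassium-chloride cotransporter NKCC2 of that segment, read -0.35, -0.37 and -0.04 (mean -0.25 ± 0.18, n = 3, adjusted p = 0.182). Its arrays with the low-numbered rat in Cy3 were -0.71, -0.69 and -0.35 and those in Cy5 0.01, -0.05 and 0.26, lower in the first orientation in every pair. Egf, a growth factor made by these cells, averaged -0.25 ± 0.18 (n = 3, adjusted p = 0.235), whereas uromodulin (Umod), a protein secreted by the segment, stood at -0.05 ± 0.11 (n = 3). Collecting duct markers had 0 of 4 at an unadjusted p under 0.05, with aquaporin Aqp3 at -0.14 ± 0.066 (n = 3).

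Among sodium transport genes, Atp1b1, the beta subunit of the sodium pump, was positive at 0.35, 0.19 and 0.39 (mean 0.31 ± 0.10, n = 3, adjusted p = 0.172), while Fxyd4, a modulator of the same pump in the collecting duct, was negative at -0.28, -0.04 and -0.18. The epithelial sodium channel subunit Scnn1a averaged 0.07 ± 0.013 (n = 3) and the aldosterone-induced kinase Sgk1 -0.17. Of 8 tested genes 3 were positive, and 1 positive and 2 negative genes had an unadjusted p under 0.05. Of 7 tested genes of the renin-angiotensin, steroid, endothelin, kinin and nitric oxide list 1 did so, the mineralocorticoid receptor Nr3c2, at -0.57, -0.15 and -0.01. Hsd11b2, which protects that receptor from glucocorticoids, averaged -0.16 ± 0.17 (n = 3), and angiotensinogen (Agt) -0.09.

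**Figure D3:**
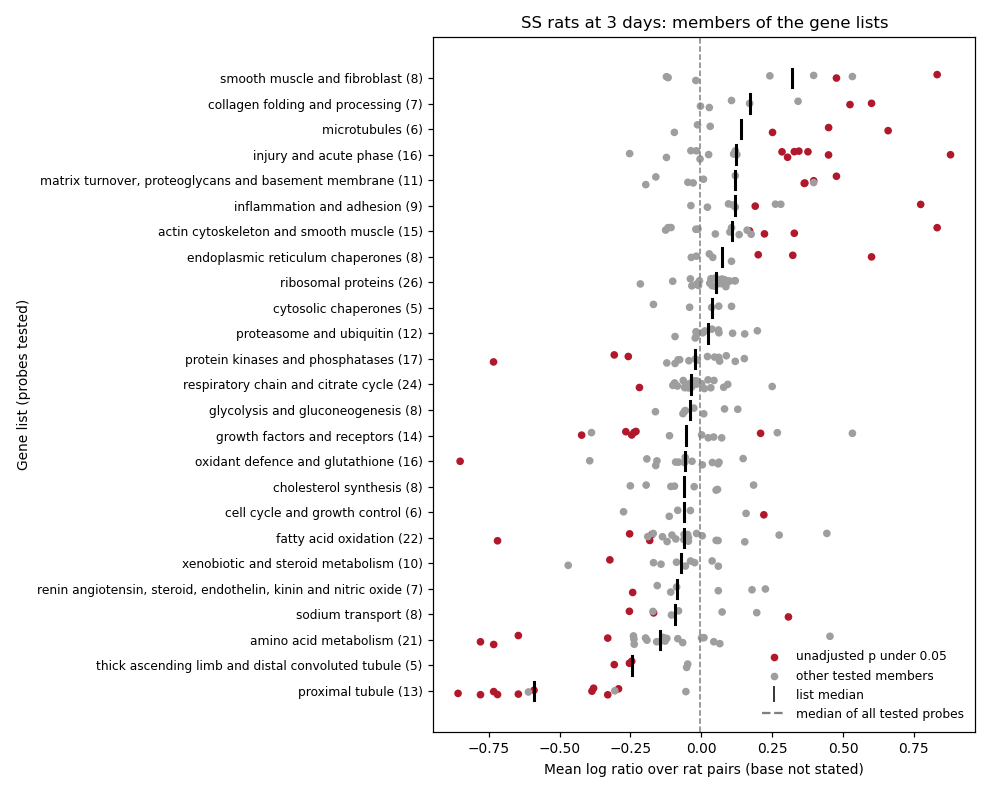
Mean log ratio over pairs of each tested member (points, red where the unadjusted p is under 0.05) in lists with at least 5 tested probes, sorted by list median (black bar), with the median of all tested probes dashed. The proximal tubule list has its median at -0.59 and all members below 0, and most metabolic lists lie near the dashed line.

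Metabolic lists lay mostly near the median of all probes, with single members apart. Of 21 amino acid genes 16 were negative (median -0.15) and 4 had an unadjusted p under 0.05. These were Hpd, of tyrosine breakdown, at -0.33 ± 0.28 (n = 3, adjusted p = 0.158), and Aadat, Hao2 and Agxt2, all of which are also in the proximal tubule list. Of 22 fatty acid oxidation genes 16 were negative (median -0.06), and 4 had an unadjusted p under 0.05. The mitochondrial enzymes Eci1, Acadm and Acat1 stood at -0.25 ± 0.031, -0.18 ± 0.037 and -0.17 ± 0.059 (n = 3 each), with like values in every pair, unlike Acsm2. Acsm2 is also in the proximal tubule list, whose median of -0.59 lay farther from 0 than those of these lists. The part of proximal tubule markers in them was not tested. Of 24 genes of the respiratory chain and citrate cycle 1 had an unadjusted p under 0.05, the isocitrate dehydrogenase Idh1 at -0.22 ± 0.051 (n = 3). Of 8 cholesterol synthesis genes and 8 of glycolysis, none did.

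Detoxifying enzymes included some of the largest negative values. Gsta2, a glutathione transferase, read -1.51, -0.51 and -0.54 (mean -0.85 ± 0.57, n = 3, adjusted p = 0.176), and it was the only 1 of 16 oxidant defence genes at an unadjusted p under 0.05. Ephx1, the microsomal epoxide hydrolase, read -0.37, -0.24 and -0.36 (mean -0.32 ± 0.075, n = 3, adjusted p = 0.13), and its swapped arrays differed by at most 0.05. Cyp2c23, an epoxygenase that makes epoxyeicosatrienoic acids from arachidonic acid in the kidney, read -1.17, -0.55 and -0.05 (mean -0.59 ± 0.56, n = 3, adjusted p = 0.182). Both are members of the arachidonic acid list and the only ones tested there.

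Growth factor and receptor genes were split, 7 positive and 7 negative, and 1 positive and 5 negative genes had an unadjusted p under 0.05 (6.8 and 5.44 percent of all probes). Igf1, insulin-like growth factor 1, was the steadiest of the leading negative genes, at -0.29, -0.27 and -0.24 (mean -0.27 ± 0.024, n = 3, adjusted p = 0.177), and its 6 arrays ran from -0.30 to -0.18. The glucagon receptor Gcgr read -0.72, -0.24 and -0.31, and Pdgfa, a platelet-derived growth factor chain, -0.30, -0.21 and -0.18. Grb2, an adaptor of receptor tyrosine kinases, lay on the positive side at 0.03, 0.37 and 0.22. The cell polarity gene Pard3 had the negative value with the smallest p, at -1.11, -0.53 and -0.56 by pair (mean -0.73 ± 0.33, n = 3, adjusted p = 0.065), with all 6 arrays below 0. The proprotein convertase Pcsk6 read -0.37, -0.19 and -0.21, the adhesion receptor Adgrl2 -0.15, -0.21 and -0.37, the cannabinoid receptor Cnr1 -0.21, -0.35 and -0.50, and the G protein subunit Gnas -0.27, -0.10 and -0.23.

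Several further genes had small p on the positive side without passing. The nuclear transport factor Nutf2 averaged 0.31 ± 0.25, the 14-3-3 protein Ywhah 0.31 ± 0.24, the membrane-shaping protein Bin1 0.27 ± 0.13 and neurogranin (Nrgn), a calmodulin-binding protein, 0.44 ± 0.37 (n = 3 each). Pair 3 was the lowest in all of them, at 0.03 for Nutf2 and Nrgn.

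The inflammation and ribosomal lists were mostly positive in pairs 1 and 2 and mostly negative in pair 3. Of the inflammation and adhesion list 8 of 9 tested genes were positive in pair 1, 7 of 7 in pair 2 and 2 of 9 in pair 3, with pair medians of 0.35, 0.16 and -0.14. C1s, a protease of the complement cascade, had the widest range of all genes, at 1.96, 0.52 and -0.16 (mean 0.77 ± 1.08, n = 3, adjusted p = 0.402). B2m, the light chain of class I histocompatibility molecules, read 0.58, 0.31 and -0.11. The leukocyte membrane protein Cd53 was positive in every pair, at 0.56, 0.46 and 0.09. So were the Fc receptor Fcgr2a (1.02, 0.43 and 0.19) and the lysosomal protease Ctss (1.38, 0.65 and 0.03), both chosen after their values were seen. Untested leukocyte genes lay on both sides, with pair 1 values of -0.25 for Cxcr4, -0.08 for Lyz2 and 0.26 for Cd37. Of the macrophage and leukocyte list 6 genes had a value and 2 were tested, Cd53 and C1qb, at 0.37 and 0.28.

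Of 26 tested ribosomal protein genes, 22 of 25 were positive in pair 1, 21 of 26 in pair 2 and 3 of 26 in pair 3. The values were small, with pair medians of 0.17, 0.06 and -0.06, and 0 had an unadjusted p under 0.05 in limma. Rpl39 read 0.30, 0.09 and -0.04, and Rps26 0.29, 0.04 and -0.05. All 6 tested cell cycle genes were positive in pair 3, against 2 in pair 1 and 3 in pair 2. Among them the early growth response factor Egr1 read 0.00, -0.73 and 1.20, and Pcna, the clamp of DNA polymerase, 0.40, 0.20 and 0.06. Fabp4, a fatty acid carrier of fat and endothelial cells, read 1.32, 0.41 and -0.40, and Ctxn1 1.10, 0.69 and -0.45. Red cell genes stayed near 0, with Hbb at -0.06 ± 0.074 and Hba-a1 at 0.00 ± 0.094 (n = 3 each), as did the endothelial receptor Kdr at -0.04 ± 0.22 (n = 3).

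**Figure D4:**
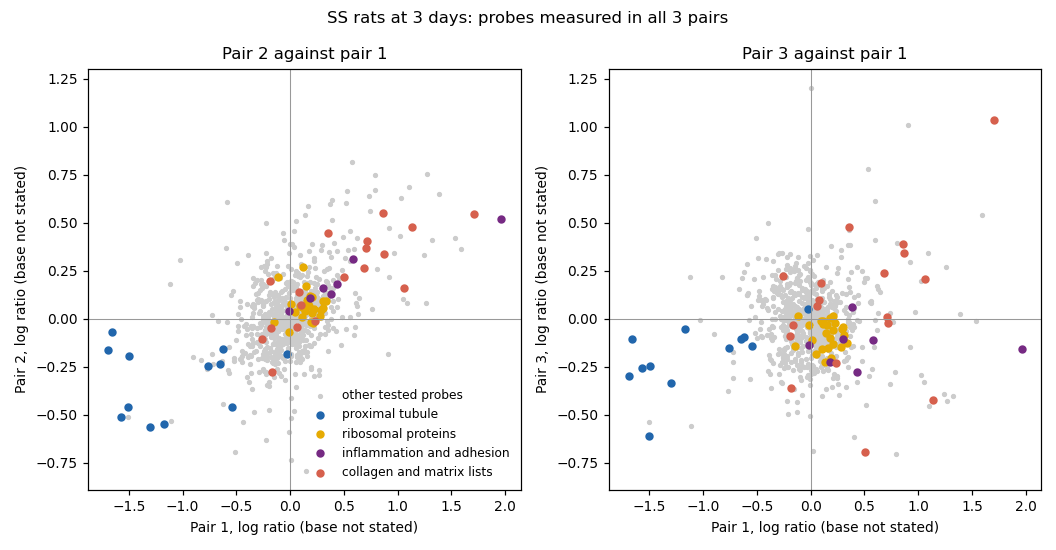
Log ratio of pair 2 (left) and pair 3 (right) against pair 1 for the probes measured in all pairs, with lists in colour. Proximal tubule genes (blue) lie at the lower left in both panels, ribosomal genes (yellow) mostly above 0 on the left and below 0 on the right.

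The comparison with SS rats overnight asks whether the ratio moved between the times. The low-numbered rats carry the same names at both times, so the groups share animals by their labels. Of 880 probes 0 passed in limma (0 percent), and 17 had an unadjusted p under 0.05 (1.93 percent), 7 higher and 10 lower at 3 days (0.795 and 1.14 percent). This fit takes the pairs of both times as independent, although they share rats by their labels. With the low-numbered rat as a replicate block, 35 had an unadjusted p under 0.05 and 0 passed in limma. The SE values given for this comparison come from the fit without that block. The pair values did not overlap in 66 probes (7.5 percent). Col1a1 read 1.71, 0.55 and 1.04 at 3 days and 1.55, 0.36 and 0.93 overnight, and Serpinh1 0.86, 0.55 and 0.39 against 0.73, 0.57 and 0.36. Tubb5 read 0.30, 0.23 and 0.47 overnight, and the difference was 0.11 ± 0.12 (SE). For Kap the order of pairs changed, with pair 2 lowest overnight at -1.77 and pair 1 lowest at 3 days.

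The genes with the smallest p for this difference and no overlap did not pass (adjusted p = 0.988 for each, limma). The kinase Akt1 read -0.09 and 0.13 in pairs 1 and 3 at 3 days, and -0.79 and -0.66 in pairs 1 and 2 overnight, a difference of 0.75 ± 0.15 (SE). Grb2 lay higher at 3 days by 0.31 ± 0.12, Stmn1 by 0.46 ± 0.20, the transcription factor Foxq1 by 0.60 ± 0.20 and the G protein subunit Gng7 by 0.27 ± 0.099 (SE). Lower at 3 days were the cholesterol synthesis enzymes Msmo1 (-0.53 ± 0.16) and Mvd (-0.48 ± 0.15), the leukocyte adhesion molecule Vcam1 (-0.49 ± 0.17), the transcriptional regulator Tsc22d1 (-0.49 ± 0.17) and the proteoglycan Sdc4 (-0.24 ± 0.081).

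The comparison with SS-13BN/Mcw at 3 days asks whether the strains differed at that time, and slide order cannot be told apart from strain here. It also takes the numerator to be the same side in both strains, which is not stated. Of 824 probes 0 passed in limma (0 percent). At an unadjusted p under 0.05 there were 69 (8.37 percent), 36 higher and 33 lower in SS (4.37 and 4 percent), and the pair values did not overlap in 130 probes (15.8 percent). The collagen and microtubule genes that led in SS had means near 0 in the consomic strain. Col1a1 read 0.11, 0.22 and -0.25 there, a difference of 1.07 ± 0.31 (SE, adjusted p = 0.299), and Serpinh1 averaged 0.05 ± 0.074 (n = 3), a difference of 0.55 ± 0.14 (SE, adjusted p = 0.193). Nid1 averaged -0.17 ± 0.056 (n = 3), a difference of 0.57 ± 0.12 (SE, adjusted p = 0.116). Tubb5 averaged -0.05 ± 0.042 (n = 3), a difference of 0.50 ± 0.12 (SE, adjusted p = 0.137). Stmn1 differed by 0.71 ± 0.20 (SE, adjusted p = 0.282), but its consomic pairs were split, at 0.18, 0.19 and -0.53. Serpina3n was positive in both strains, at 0.40, 0.22 and 0.10 in SS-13BN/Mcw, a difference of 0.64 ± 0.18 (SE, adjusted p = 0.299). None of these differences passed.

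The largest difference between strains was that of Hsd11b1, the enzyme that regenerates active glucocorticoid. It read 0.40, 0.39 and -0.62 in SS and -0.94, -1.20 and -1.15 in SS-13BN/Mcw (difference 1.16 ± 0.23, SE, adjusted p = 0.114). On the other side, Pdgfa averaged 0.44 ± 0.29 in SS-13BN/Mcw (n = 3), a difference of -0.68 ± 0.13 (SE, adjusted p = 0.114). Gnrhr, a gonadotropin-releasing hormone receptor, differed by -0.65 ± 0.14 (SE, adjusted p = 0.116), the acyl-CoA ligase Acsl3 by -0.57 ± 0.13 (SE, adjusted p = 0.137), Sdc4 by -0.29 ± 0.080 (SE, adjusted p = 0.282) and Gcgr by -0.51 ± 0.15 (SE, adjusted p = 0.328). The 13 proximal tubule genes had a median of -0.59 in SS and -1.01 in SS-13BN/Mcw, with Kap at -1.71 ± 0.23 in the latter (n = 3).

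**Figure D5:**
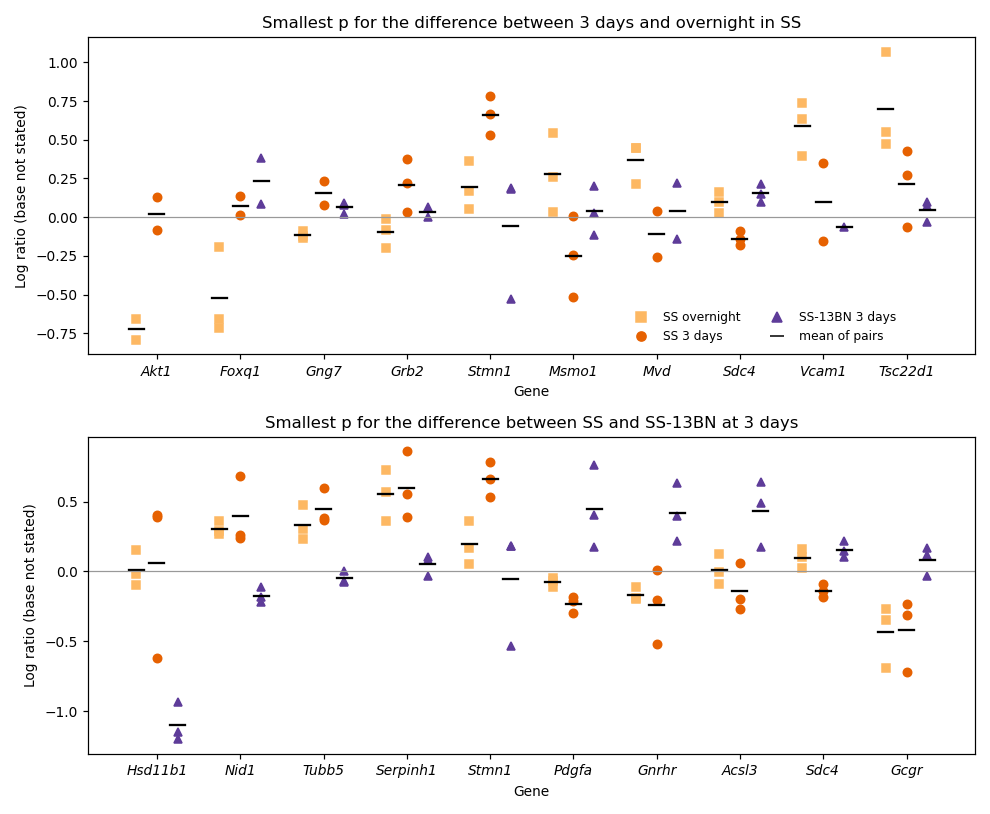
Pair values (symbols) and their mean (bar) in SS overnight, SS 3 days and SS-13BN/Mcw 3 days for genes with the smallest p and no overlap in each comparison, the y axis being the log ratio. Nid1 is above 0 in every SS pair and below 0 in every SS-13BN/Mcw pair, Pdgfa the reverse.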

How the data were processed

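Rat kidney total RNA was measured on 24 cDNA arrays with 2 channels, 6 of them of SS rats at 3 days. The deposited values are log ratios, 1 per probe and array; their base, numerator and the normalization by the authors were not given in the sources used. The table held 3742 probes (1766 measured), and 0 columns belonged to no sample. Symbols came from the array's annotation and were updated by gene number to GRCr8 (1421 of 1426 probes with 1 symbol; 29 had several symbols and 311 none, and these were tested but not named).

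Arrays were centred on their median and the swapped arrays of a pair averaged without turning signs, since swapped arrays correlated positively in all 12 pairs once the mean of other arrays of their orientation was removed (r from 0.17 to 0.83). limma 3.58.1 in R 4.3.3, with statmod 1.5.0, fitted 1 coefficient per group over the 12 pairs (8 residual degrees of freedom) with eBayes. Tests were two-sided with Benjamini-Hochberg adjustment at 0.05, over probes with both orientations in at least 2 pairs of each group compared. P-values rest on a spread between rat pairs within groups, pooled over the 12 pairs of the 4 groups and moderated by eBayes. They do not measure the SD of the SS pairs at 3 days printed beside a mean. The number of pairs limits the precision, and an exact test of 3 pairs cannot go below p = 0.25. The fits were also run on simulated pair values drawn independently. Those held no dye offsets, shared rats or wider pair, so the run does not test these features. Promoters and figures used Python 3.11.15, pandas 2.3.3 and matplotlib 3.10.9.

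Named genes were those that passed, then the 15 of smallest p per direction among genes of 1 sign over pairs, 5 per direction for each difference with pair values that do not overlap, up to 5 members per gene list and its defining markers, the 6 genes with the widest range over pairs and those with the largest difference between swapped arrays. Fcgr2a and Ctss were chosen after their values were seen. The 34 gene lists, like the arrays described, were chosen with earlier results of these data known.

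The titles give rats 1 to 3 of SS to both times, so pairs with the same low-numbered rat were taken as linked through that animal. Deviations from the group mean correlated between times at 0.49, -0.02 and 0.62 for rats 1, 2 and 3 over 761 probes. The fit with that rat as a replicate block (consensus correlation 0.28) is an alternative, as are other centring, scaling, filters, moderation, sample sets, an array-level fit with a dye term, turning by dye and leaving out each pair.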

Additional observations from a re-analysis of the deposited data

Results flagged for a closer look

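In some probes every pair of SS at 3 days lay on 1 side of 0 and every pair of the other group on the opposite side. There were 12 of 880 such probes against SS overnight (1.36 percent) and 27 of 824 against SS-13BN/Mcw at 3 days (3.28 percent). Each difference was tested, and none passed in limma. Only those of them that the report names by its rule, 5 genes measured in all pairs, are given with values. Against SS overnight, where 66 of 880 probes did not overlap (7.5 percent), the named ones were Grb2, higher at 3 days by 0.31, and Sdc4, lower with a difference of -0.24 (adjusted p = 0.988 for both). Grb2 read 0.03, 0.37 and 0.22 at 3 days and -0.01, -0.20 and -0.08 overnight, so pair 1 was close to 0 at both times. Against SS-13BN/Mcw at 3 days, where 130 of 824 did not overlap (15.8 percent), Nid1 differed by 0.57 (adjusted p = 0.116) and Tubb5 by 0.50 (adjusted p = 0.137), although pair 2 of SS-13BN/Mcw was barely below 0 for Tubb5. On the other side, Pdgfa differed by -0.68 (adjusted p = 0.114) and Sdc4 by -0.29 (adjusted p = 0.282). Sdc4, a cell-surface proteoglycan, is in both comparisons because its SS values at 3 days were -0.14, -0.18 and -0.09. Both comparisons use these same SS pairs, and both take the numerator to be the same side in every group, which is not stated.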

How the results depend on the processing

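For SS at 3 days the count of 3 was the same as deposited and with robust moderation, and 2 with single orientations kept or no filter on pairs. It was 9 with arrays scaled to one spread, 16 after quantile normalization, 38 in the array-level fit, 5 with the replicate block, 1 with all 3 pairs required, 0 in a fit of the group alone, and 0 to 10 when pairs were left out. Turning arrays by dye gave 344 probes (134 positive, 210 negative). Tubb5 stood at -0.44, Calr at -0.12, Stmn1 at -0.38, Pard3 at 0.18 and Kap at 0.23, all reversed in sign. Ephx1 had the reversed sign too but lay near 0, at 0.0080 (adjusted p = 0.933 in limma). That setting averages the difference between swapped arrays. Apart from it the 10 leading genes kept their sign in every alternative that tested them. This was largely fixed in advance. These genes have 1 sign in every measured pair, so leaving out a pair could not turn it, and several alternatives refit the same pair values. Serpinh1 ran from 0.47 to 0.71 and Col1a1 from 0.79 to 1.37, with adjusted p up to 0.384 and 0.504. Medians of all 34 lists kept their sign in each of these scalings (deposited, one spread, quantile). For 3 days against overnight 0 probes passed in every alternative in limma (9 to 73 at an unadjusted p under 0.05, and 35 with the replicate block). For the strains, 0 became 7 with arrays scaled to one spread, 5 after quantile normalization, 7 in the array-level fit, and 0 to 1 when pairs were left out (1 without pair 3 of SS, 1 without pair 2 of SS-13BN/Mcw); the replicate block left it at 0 (69 at an unadjusted p under 0.05). The cause of these shifts was not tested. The number of pairs and the dye differences limit all counts, and no signal over background is in the table.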

Other observations

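Protein turnover genes outside the groups above lay near the median of all probes. Of 12 proteasome and ubiquitin genes 8 were positive, with a median of 0.03 and pair medians of 0.07, 0.04 and 0.04, and 0 had an unadjusted p under 0.05 in limma. The translation factors Eef2 and Eef1a1 averaged 0.02 and 0.00. The largest differences between swapped arrays belonged to RT1-A1, a class I histocompatibility gene, Tpm3, a tropomyosin, Pdia3 and Prdx6, a peroxiredoxin, at 1.57, 1.40, 1.35 and 1.30 on average over pairs, while their pair means were -0.03, 0.10, 0.04 and -0.06. In pair 1 RT1-A1 read -1.85 with the low-numbered rat in Cy3 and 0.67 with it in Cy5.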
